A study of Mus musculus with 6 samples.

Results

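The BCL2 family decides whether a stressed cell opens its mitochondrial outer membrane and dies by apoptosis, and 10 of its genes were followed here in mouse small-cell lung cancer. They were chosen by name, with earlier results of these data known. They are the prosurvival genes Bcl2, Bcl2l1, Bcl2l2 and Mcl1, the pore-forming effector Bak1, and the BH3-only genes Bid, Bad, Bmf, Bcl2l11 and Bik. Each was read from the array row whose platform annotation names that gene and no other, taking the row with the highest mean where a gene had more. All 10 were found among 22179 genes measured, and none lay in the lowest 30% of genes by mean level.

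Prosurvival BCL2 proteins hold the effectors BAK and BAX in check, and BH3-only proteins respond to stress by occupying the prosurvival proteins or by activating the effectors directly. Once the effectors form pores, cytochrome c escapes from mitochondria and triggers the caspase cascade. Small-cell lung cancer is known for abundant BCL2, which has made the family a drug target in this disease.

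The cells came from a mouse model with conditional alleles of Rb, p53 and p130, all deleted by adenoviral Cre given into the trachea, and an allele reporting Hes1, a Notch target, by green fluorescence. Both groups carry these alleles. Tumours isolated 5 to 6 months after Cre were pooled, from 3 mice according to the treatment protocol. Flow cytometry then separated GFP-negative cells (Hes1 negative or low) from GFP-high cells (Hes1 high). Affymetrix Mouse Gene 2.0 ST arrays measured the total RNA of 3 samples per group. The titles call the samples biological replicates but do not tell whether each had its own pool of mice, so p-values measure only the spread between these samples. The labels used here name no strain, no age at Cre and no cell type in which Cre acted.

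All levels below are on the log2 scale of the RMA values. Log2 fold changes are GFP-high minus GFP-negative with the standard error (SE) from limma, and a gene is called where its p, adjusted by Benjamini-Hochberg over all 22179 genes, is under 0.05. Array values of different genes are not compared as levels, since probes differ in response. Hes1 followed the sort, at 10.27 to 10.49 in GFP-high and 6.65 to 6.98 in GFP-negative arrays. Markers of several cell types also differed in this comparison. All 12 measured neuroendocrine markers were lower in GFP-high cells, with a summed level (log2 of the summed linear values) of 11.63 to 12.74 against 14.18 to 14.41 in GFP-negative cells. Higher in GFP-high cells were 8 of 10 club cell markers (summed level 15.43 to 15.58 against 12.13 to 12.85), 9 of 11 alveolar type 2 markers (14.00 to 14.30 against 10.62 to 10.89) and 9 of 10 alveolar type 1 markers (12.91 to 13.10 against 10.92 to 11.22). Of 15 leukocyte markers 0 were higher and 1 was lower by limma, also at an unadjusted p under 0.05, and their summed levels overlapped (9.18 to 10.45 in GFP-high and 9.57 to 10.30 in GFP-negative arrays). Endothelial markers were 2 higher and 1 lower of 10, fibroblast markers 1 higher and 1 lower of 10, and ciliated cell markers 1 higher and 3 lower of 9. The summed fibroblast level was 9.68, 9.65 and 10.72 in GFP-high and 10.72 to 11.36 in GFP-negative arrays, so that GFP-high replicate 3 reached the GFP-negative level. Mostly that sum followed Dcn, the marker called lower (mean 9.30 in GFP-high and 10.77 in GFP-negative arrays). At an unadjusted p under 0.05 by limma, fibroblast markers were 4 higher and 1 lower. Summed endothelial (10.26 to 10.57 and 10.30 to 10.72) and ciliated levels (9.42 to 9.82 and 9.60 to 9.78) overlapped. The endothelial sum combined opposite changes, with Kdr and Esam higher (log2 fold changes 3.87 and 0.60) and Vwf lower (-2.07). The part of these cells in the results below was not tested, and in such bulk samples fewer cells of a type and less RNA per cell cannot be told apart.

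Of the 10 regulators, 5 were called higher in GFP-high cells (Bcl2, Bmf, Bid, Bak1 and Bad), 0 lower and 5 were not called by limma. At an unadjusted p under 0.05 the counts were the same, 5 higher and 0 lower. Over all genes 30% were called, 13% higher and 17% lower. The median log2 fold change of the 10 was 0.46, against 0.01 over all genes. Because the 10 were chosen with earlier results of these data known, these contrasts describe the list and do not test it. The fitted value was above 0 for all 10, although for the 5 not called its 95% interval included 0. The groups did not overlap for 6 of the 10, the called genes and Bcl2l11, where 44.6% of all genes had groups that did not overlap. Only Bcl2 and Bmf differed by at least 1 on the log2 scale, which 11.7% of all genes did with a call.

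**Figure D1:**
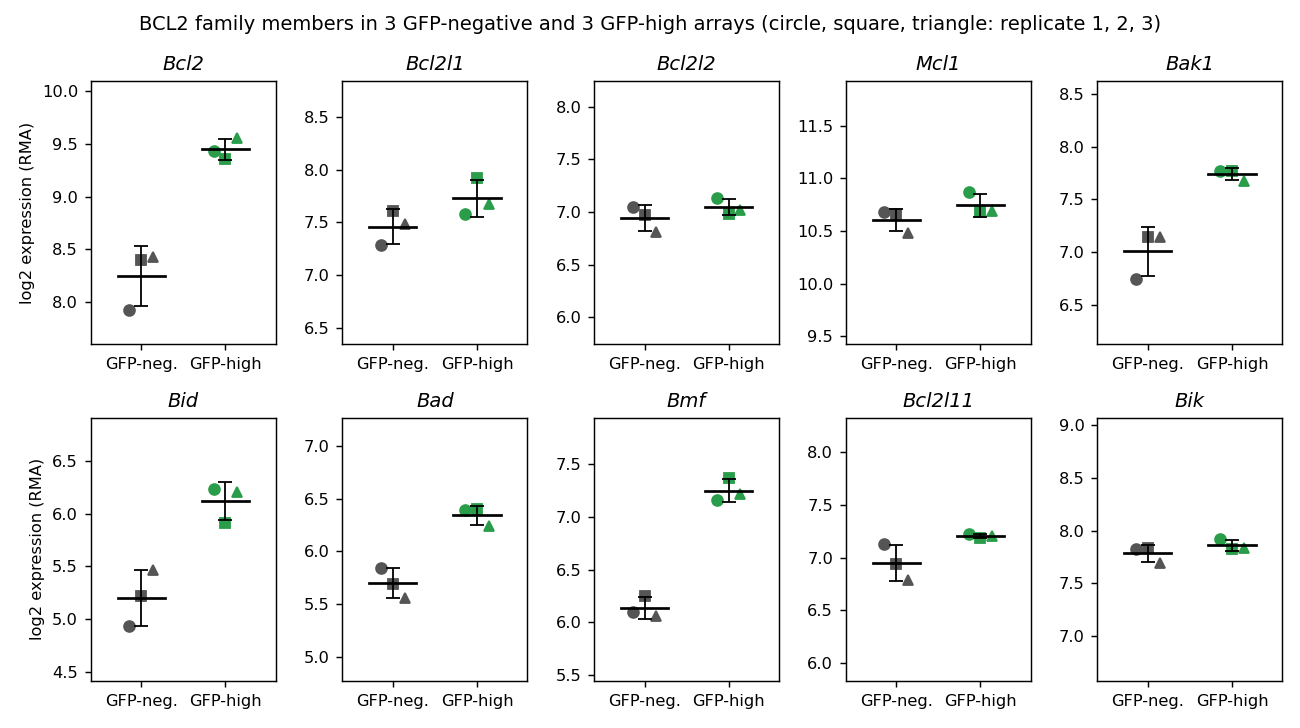
Log2 expression (RMA, y axis) of the 10 regulators in each array, grey for GFP-negative and green for GFP-high, with the mean (bar) and SD (whiskers, n = 3). Every panel spans the same log2 range. Bcl2, Bmf, Bid, Bak1 and Bad show separate groups, while Mcl1, Bcl2l2, Bcl2l1 and Bik overlap.

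Among the prosurvival genes, Bcl2 alone was called. Bcl2 encodes the founding member of the family, which sits on the outer mitochondrial and endoplasmic reticulum membranes and sequesters BH3-only proteins. Its log2 level was 7.92, 8.40 and 8.42 in the GFP-negative arrays and 9.44, 9.36 and 9.56 in the GFP-high arrays. Every GFP-high array lay above every GFP-negative array, and GFP-negative replicate 1 was the lowest of the 6. The means were 9.45 ± 0.10 and 8.25 ± 0.28 (SD, n = 3 each), a 2.30-fold difference (log2 fold change 1.20 ± 0.16 SE, limma adjusted p = 0.000478). A second row for Bcl2, at a lower level, read 4.25, 4.08 and 4.48 in GFP-negative and 4.37, 4.79 and 4.61 in GFP-high arrays. These values lay in the range of the lowest 30% of genes by mean level, which include Adgre1 (means 4.48 and 4.78). The groups of this second Bcl2 row overlapped, and it was not called (log2 fold change 0.32 ± 0.16 SE, adjusted p = 0.231 in a limma fit of all 41344 rows). With the mean of both rows Bcl2 remained called, at a log2 fold change of 0.76 (limma adjusted p = 0.00217).

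The other prosurvival genes were not called. Mcl1 encodes a short-lived prosurvival protein that binds BIM, NOXA and BAK. It read 10.68, 10.66 and 10.48 in GFP-negative and 10.87, 10.67 and 10.69 in GFP-high arrays, so that the groups overlapped. Its log2 fold change was 0.14 ± 0.12 SE (95% interval -0.13 to 0.40, limma adjusted p = 0.437), and a second Mcl1 row also was not called (0.30 ± 0.14 SE, adjusted p = 0.213 over all rows). Bcl2l1, which encodes BCL-XL, read 7.28, 7.61 and 7.48 in GFP-negative and 7.58, 7.92 and 7.68 in GFP-high arrays. The highest GFP-negative array lay above the lowest GFP-high array, and the difference did not pass (0.27 ± 0.14 SE, 95% interval -0.05 to 0.58, limma adjusted p = 0.193). Splice forms of Bcl2l1 with opposite effects on survival are known, and a single row per gene does not separate them. Bcl2l2, which encodes BCL-W, read 7.05, 6.97 and 6.81 against 7.13, 6.98 and 7.02 and also overlapped (0.10 ± 0.12 SE, 95% interval -0.16 to 0.36, limma adjusted p = 0.577).

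Because each array measured all 4 prosurvival genes, their change relative to each other was read within arrays. Bcl2 minus Mcl1 was -2.75 to -2.06 in GFP-negative and -1.43 to -1.13 in GFP-high arrays on the log2 scale, a shift of 1.06 toward Bcl2. Bcl2 minus Bcl2l1 shifted by 0.93, from 0.79 ± 0.15 to 1.72 ± 0.25, and Bcl2 minus Bcl2l2 by 1.10, from 1.30 ± 0.38 to 2.41 ± 0.12 (SD, n = 3 each). The groups did not overlap in any of these 3 differences, and a two-sided exact permutation test gave p = 0.10 for each, the smallest p that 3 against 3 arrays allow. With the mean of all rows of each gene, an alternative chosen after seeing the data, the shifts were smaller, 0.54 against Mcl1, 0.49 against Bcl2l1 and 0.66 against Bcl2l2, still without overlap. Against Mcl1 the groups then nearly touched, with the lowest GFP-high array at -2.07 and the highest GFP-negative array at -2.08. Each shift is by construction the log2 fold change of Bcl2 minus that of the other gene. The shifts are therefore no support separate from the fits above. They describe unequal change between the genes and not their relative amounts.

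The effector Bak1 was higher in GFP-high cells. It encodes BAK, which resides on mitochondria and forms the outer membrane pore when it is freed from prosurvival partners. Bak1 read 6.74, 7.14 and 7.14 in GFP-negative and 7.77, 7.77 and 7.68 in GFP-high arrays. The GFP-high arrays lay close together and above all GFP-negative arrays, of which replicate 1 was the lowest. The difference was 1.66-fold (log2 fold change 0.73 ± 0.14 SE, limma adjusted p = 0.00381). Bax, the partner effector, was on the list of further family genes, but no array row was annotated with its name, so it was not measured here.

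The BH3-only genes split into 3 that rose and 2 that were not called. Bmf had the smallest p of the family. It encodes a BH3-only protein known to be held on myosin motor complexes of the cytoskeleton and released when cells detach. Bmf read 6.10, 6.25 and 6.06 in GFP-negative and 7.17, 7.37 and 7.22 in GFP-high arrays. The gap between the groups was wider than the range of either, and the difference was 2.17-fold (7.25 ± 0.11 against 6.14 ± 0.10, SD, n = 3 each; log2 fold change 1.12 ± 0.12 SE, limma adjusted p = 0.000155). Bid, whose product is cut by caspase-8 and carries death receptor signals to mitochondria, read 4.93, 5.21 and 5.46 in GFP-negative and 6.24, 5.91 and 6.21 in GFP-high arrays. All GFP-high arrays were above all GFP-negative arrays, by 1.89-fold between the means (log2 fold change 0.92 ± 0.16 SE, limma adjusted p = 0.00264). Bad encodes a BH3-only protein that growth factor signalling keeps inactive through phosphorylation and binding to 14-3-3 proteins. Bad read 5.84, 5.69 and 5.56 against 6.39, 6.40 and 6.24, again without overlap (1.57-fold, log2 fold change 0.65 ± 0.12 SE, limma adjusted p = 0.00356). A row shared by Bad and its neighbour Gpr137 gave 0.26 ± 0.14 SE and was not called (adjusted p = 0.255 over all rows).

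Bcl2l11 and Bik gave no call. Bcl2l11 encodes BIM, a BH3-only protein that binds every prosurvival member and is induced by FOXO factors. It read 7.13, 6.94 and 6.79 in GFP-negative and 7.22, 7.19 and 7.20 in GFP-high arrays. The groups did not overlap, with GFP-negative replicate 1 just below the GFP-high arrays, and the difference did not pass (log2 fold change 0.25 ± 0.12 SE, 95% interval -0.02 to 0.53, limma adjusted p = 0.161). Bik, which encodes a BH3-only protein of the endoplasmic reticulum, had the smallest difference of the 10. Its log2 level was 7.83, 7.83 and 7.69 in GFP-negative and 7.92, 7.82 and 7.84 in GFP-high arrays (0.08 ± 0.11 SE, 95% interval -0.17 to 0.32, limma adjusted p = 0.656).

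GFP-high replicate 3 had the highest neuroendocrine, alveolar type 2 and fibroblast summed levels of its group (12.74, 14.30 and 10.72). It also had the highest leukocyte, endothelial and ciliated levels (10.45, 10.57 and 9.82), but not the highest club or alveolar type 1 level. It was the highest GFP-high array for Bcl2 and the lowest for Bak1 and Bad. Without it the 5 calls and their directions were kept, with log2 fold changes of 1.15 for Bcl2, 1.13 for Bmf, 0.87 for Bid, 0.76 for Bak1 and 0.70 for Bad.

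**Figure D2:**
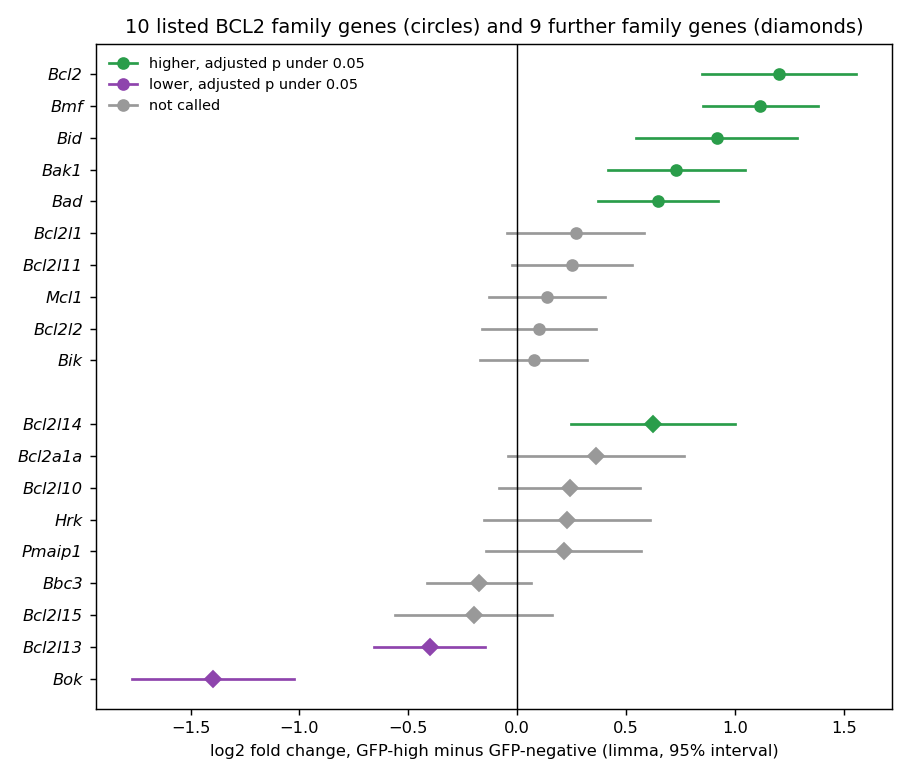
Log2 fold change (x axis, GFP-high minus GFP-negative) with its 95% interval from limma, for the 10 regulators (circles) and 9 further BCL2 family genes (diamonds), coloured by call. Intervals of 5 regulators lie wholly above 0 with a call, from 0.65 for Bad to 1.20 for Bcl2, and Bok lies at -1.40.

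The start regions of the genes that rose are shown because these members moved in the same direction. They are the 250 bases before a RefSeq start of Bcl2, Bmf, Bid, Bak1 and Bad, the outermost start in the promoter table where it lists several (build GRCm38.p6, gene strand, 5′ to 3′), with capitals marking matches on either strand to the motifs named after them. The start used for Bid lies inside the annotated locus, and the other windows adjoin the end of theirs.
Bcl2, chr1:106714291-106714540, minus strand: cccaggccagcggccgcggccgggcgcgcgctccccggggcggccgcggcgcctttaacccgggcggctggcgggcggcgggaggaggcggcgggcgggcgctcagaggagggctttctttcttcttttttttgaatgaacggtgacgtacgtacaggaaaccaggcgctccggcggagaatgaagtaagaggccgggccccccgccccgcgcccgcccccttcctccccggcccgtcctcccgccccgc
Bmf, chr2:118549687-118549936, minus strand: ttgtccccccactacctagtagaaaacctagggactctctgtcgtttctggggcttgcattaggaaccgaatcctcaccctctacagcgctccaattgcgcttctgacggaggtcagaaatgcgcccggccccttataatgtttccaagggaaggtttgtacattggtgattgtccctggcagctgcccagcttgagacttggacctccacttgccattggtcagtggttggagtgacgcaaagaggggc
Bid, chr6:120916825-120917074, minus strand: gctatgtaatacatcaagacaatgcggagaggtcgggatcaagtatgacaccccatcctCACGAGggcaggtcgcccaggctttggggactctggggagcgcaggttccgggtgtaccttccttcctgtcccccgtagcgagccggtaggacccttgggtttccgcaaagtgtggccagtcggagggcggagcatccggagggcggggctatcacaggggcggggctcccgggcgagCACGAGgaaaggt
Bak1, chr17:27028628-27028877, minus strand: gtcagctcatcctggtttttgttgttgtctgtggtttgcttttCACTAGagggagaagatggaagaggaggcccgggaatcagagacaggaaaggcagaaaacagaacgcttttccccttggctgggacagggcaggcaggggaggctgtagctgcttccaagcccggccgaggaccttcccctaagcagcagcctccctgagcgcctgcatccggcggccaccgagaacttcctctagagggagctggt
Bad, chr19:6941611-6941860, plus strand: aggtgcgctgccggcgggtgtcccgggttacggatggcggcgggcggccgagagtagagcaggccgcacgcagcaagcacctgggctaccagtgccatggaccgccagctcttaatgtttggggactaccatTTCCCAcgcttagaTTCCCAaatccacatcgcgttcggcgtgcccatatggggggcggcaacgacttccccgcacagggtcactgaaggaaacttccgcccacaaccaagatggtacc
The motifs searched were the RBPJ core TGGGAA, bound by the DNA-binding partner of Notch, the FOXO motif GTAAACA, the E-box CACGTG, and the N-box CACNAG, known from binding of Hes repressors. RefSeq windows were matched for 9 of the 10 genes, 15 windows in all, since several genes have more than 1 start. The RBPJ core was found in 4 of these 15 windows (2 of Bad, 1 of Bmf and 1 of Bcl2l2), against 21.6% of 32851 windows over all genes. The Bmf match was in an inner start's window, not in the one shown. The N-box was found in 4 of 15 (Bak1, Bid, Bcl2l1 and Bcl2l11) against 36.7% of all windows, the FOXO motif in 1 (Bcl2l11) against 3.2%, and the E-box in 0 against 6%. Matches thus occurred in genes that were called and in genes that were not, and the windows shown for Bcl2 and Bmf hold none of the 4 motifs. The Bcl2 window was 74.8% G and C, and the median over all windows was 52.4%.

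Genes outside the list but of the same family moved in both directions. Of 13 further BCL2 family genes listed, 9 were measured, of which 1 was higher, 2 were lower and 6 were not called, with a median log2 fold change of 0.21. Bok, an effector-like relative of BAK and BAX, was lower in GFP-high cells in every array. It read 8.51, 8.71 and 8.62 in GFP-negative and 7.02, 7.06 and 7.57 in GFP-high arrays, with GFP-high replicate 3 nearest to the GFP-negative level (log2 fold change -1.40 ± 0.16 SE, limma adjusted p = 0.000279). Bok thus fell while Bak1 rose. Bcl2l14, an atypical family member, was higher by 0.62 ± 0.16 SE on the log2 scale (limma adjusted p = 0.0197), and this call was lost without GFP-high replicate 1 (adjusted p = 0.0531) or GFP-high replicate 3 (0.0563). Bcl2l13, which also serves as a mitophagy receptor, was lower (-0.40 ± 0.11 SE, limma adjusted p = 0.0252), a call lost under quantile normalization (0.0544) and without GFP-negative replicate 1 (0.0659), 2 (0.0656) or 3 (0.0617) or GFP-high replicate 3 (0.0788).

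The BH3-only genes best known as p53 targets, Bbc3 and Pmaip1, gave no call. Bbc3, which encodes PUMA, had a log2 fold change of -0.18 ± 0.10 SE (limma adjusted p = 0.26). Pmaip1, which encodes NOXA, an antagonist of MCL1, had 0.21 ± 0.16 SE (limma adjusted p = 0.363). The neuronal BH3-only gene Hrk (0.23 ± 0.17 SE, limma adjusted p = 0.362), Bcl2l10 (0.24 ± 0.14 SE, limma adjusted p = 0.257) and Bcl2l15 (-0.20 ± 0.16 SE, limma adjusted p = 0.401) lay in the lowest 30% of genes by mean level. Bcl2a1a, a prosurvival gene of blood cells with near-identical copies whose probes may be shared, had 0.36 ± 0.18 SE (limma adjusted p = 0.169).

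Upstream of Bid, the death receptor genes were mostly higher. Of 14 measured genes 8 were higher, 1 was lower and 5 were not called (median 0.79). The receptor Fas rose by 3.24 ± 0.18 SE, from 3.89 ± 0.19 to 7.13 ± 0.32 (SD, n = 3 each; limma adjusted p = 4.35e-06). Its GFP-negative level was as low as that of genes in the lowest 30%, such as Hrk (4.09), so the size of the rise is less certain. The ligand TRAIL, Tnfsf10, rose by 2.10 ± 0.17 SE and its receptor Tnfrsf10b by 1.10 ± 0.13 SE (limma adjusted p = 4.74e-05 and 0.00032). The cytokine Tnf was higher by 1.21 ± 0.37 SE (limma adjusted p = 0.0377), which did not pass when GFP-negative replicate 2 (0.109), GFP-negative replicate 3 (0.101) or GFP-high replicate 2 (0.0511) was left out. The Tnf level of GFP-high replicate 1, 8.55, stood above those of replicates 2 and 3 (7.23 and 6.99), and without that array its log2 fold change was 0.73 (limma adjusted p = 0.0358). The 1 gene lower, Casp8, encodes the protease that cuts BID (-0.41 ± 0.12 SE, limma adjusted p = 0.0351), while its inhibitor Cflar was higher (0.81 ± 0.12 SE, limma adjusted p = 0.00111). Casp8 did not pass under median centring (0.0543), with the replicate block (0.0691), or when any array but GFP-high replicate 3 was left out (0.0593 to 0.107), while Cflar kept its call in every refit. Casp8 and Cflar were picked for naming with their values in view.

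Downstream of the mitochondrial pore, genes of the apoptosome and caspases had no common direction. Of 12 measured, 3 were higher, 2 were lower and 7 were not called (median -0.01). The effector caspase Casp6 rose by 1.69 ± 0.15 SE, and Aifm1, a mitochondrial flavoprotein, by 0.76 ± 0.10 SE (limma adjusted p = 5.92e-05 and 0.000676). Cycs, which encodes cytochrome c, fell by 0.88 ± 0.13 SE on the log2 scale (limma adjusted p = 0.00113). The nuclease gene Dffb was higher by 0.46 ± 0.14 SE (limma adjusted p = 0.0397), a call lost under median centring (0.0655), under quantile normalization (0.058) and in 5 of the 6 fits that left out 1 array (up to 0.111, without GFP-negative replicate 3). Apaf1, the scaffold of the apoptosome, and Casp9, the caspase it activates, were not called (-0.02 ± 0.12 SE and -0.22 ± 0.10 SE, limma adjusted p = 0.927 and 0.15), and the sign for Apaf1 varied with the setting. Both were picked for naming with their values in view.

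Genes with the repeat domain of inhibitor of apoptosis proteins, some of which bind caspases, were 2 higher, 4 lower and 3 not called of 9 (median -0.24). Birc3, an NF-kappaB target that encodes cIAP2, rose by 1.59 ± 0.11 SE (limma adjusted p = 1.94e-05). Birc5, which encodes survivin and also serves in mitosis, fell by 1.30 ± 0.21 SE on the log2 scale (limma adjusted p = 0.0015). Naip2 (-0.99 ± 0.18 SE) and Naip6 (-1.14 ± 0.29 SE) were lower (limma adjusted p = 0.00336 and 0.0173), but Naip genes are near-identical copies whose probes may be shared, and their products are best known as sensors of bacterial proteins. Naip6 did not pass when GFP-negative replicate 1 (0.0522) or 2 (0.0526), or GFP-high replicate 1 (0.0605) or 2 (0.0513), was left out.

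Proteins that bind or regulate the family gave 6 higher, 9 lower and 12 not called of 27 genes (median -0.29). Tmbim6, which encodes the membrane protein BAX inhibitor 1, rose by 1.23 ± 0.11 SE (10.52 ± 0.06 against 9.30 ± 0.07, SD, n = 3 each; limma adjusted p = 6.23e-05). Ywhaq, which encodes a 14-3-3 protein of the kind that holds BAD, fell by 0.90 ± 0.13 SE on the log2 scale (limma adjusted p = 0.001). Fbxw7, a ubiquitin ligase subunit that marks MCL1 and Notch for degradation, fell by 0.87 ± 0.13 SE (limma adjusted p = 0.00102), and the p53 relative Trp73 fell by 0.92 ± 0.17 SE (limma adjusted p = 0.00365). Of the BNIP genes, named for proteins that interact with BCL2 or its adenoviral counterpart, 1 was higher, 2 were lower and 1 was not called of 4. Bnipl rose by 2.05 ± 0.13 SE, and Bnip3, which encodes a mitophagy receptor, fell by 0.96 ± 0.13 SE on the log2 scale (limma adjusted p = 1.06e-05 and 0.000734). Bnip2 was lower by a log2 fold change of -0.38 ± 0.11 SE (limma adjusted p = 0.0238), a call lost without any 1 of 4 arrays: GFP-negative replicate 1 (0.0719) or 2 (0.067), or GFP-high replicate 1 (0.0789) or 2 (0.0652).

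**Figure D3:**
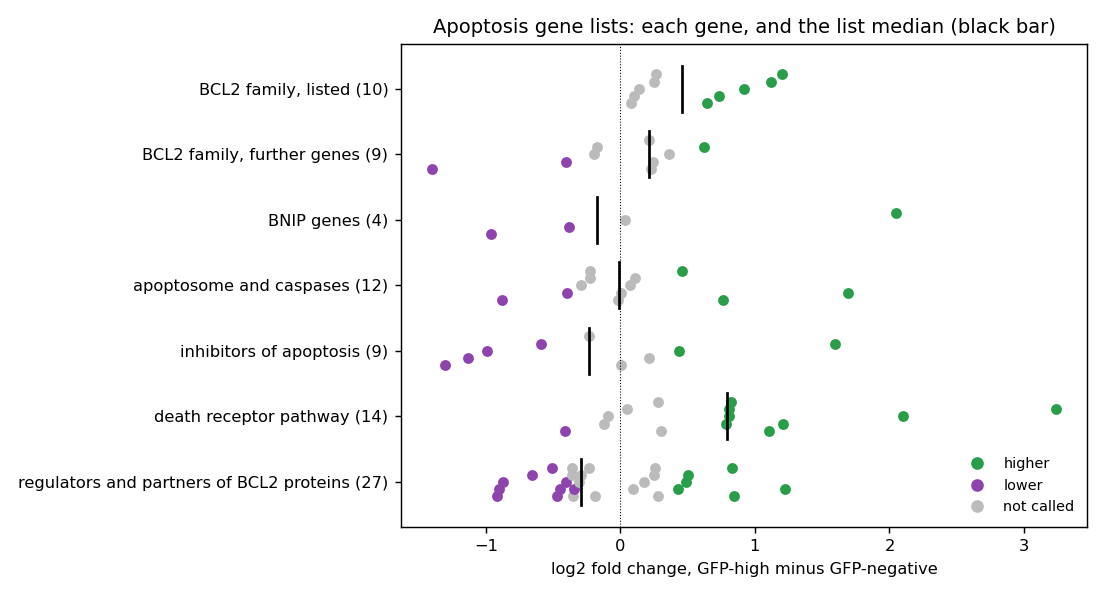
Log2 fold change (x axis, GFP-high minus GFP-negative) of every measured gene in 7 lists of apoptosis genes (rows, number measured in parentheses), green for higher, purple for lower and grey for not called, with the list median as a black bar. The 10 listed BCL2 family regulators have no gene below 0, and the death receptor genes reach furthest to the right, with Fas at 3.24.

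The genes whose profile lay nearest to that of Bcl2 were sought over the 6 arrays by the root mean square difference of log2 values centred on each gene's mean. Nearest were Ly6e (0.08), Crim1 (0.09) and Mmp14 (0.09), with log2 fold changes of 1.06, 1.17 and 1.30. The measure is governed by the difference between the groups, which many genes share, and it describes these 6 arrays only.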

How the data were processed

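The authors deposited log2 expression values, which the submitters' processing notes credit to RMA, a method of background correction, quantile normalization and probe summary. No version of RMA and no annotation release is stated in the labels, and the log2 scale was read from the values. The table has 41344 rows, of which 23520 name exactly 1 gene. The row with the highest mean represented each of 22179 genes, and the table has 0 columns of samples outside the series. The groups were compared by limma 3.58.1 in R 4.3.3 (lmFit and eBayes, defaults, 4.50 prior and 4 residual degrees of freedom), GFP-high minus GFP-negative, without a block. Two-sided p-values were adjusted with the Benjamini-Hochberg method over the 22179 genes. The 3 arrays per group limit the precision, and no depth applies to arrays. The script was tested on simulated data. The numbers were not taken to pair samples, since the labels do not say that they do. Same-numbered samples deviated together with correlations of 0.11, -0.03 and 0.00. With 3 arrays per group these values cannot exclude pairing, so a fit with a replicate block is also given. Genes named are the 10 regulators, Hes1, every measured gene of the further family list, and up to 4 called genes of each other list with the largest absolute change, except where said. The regulators and lists were chosen with earlier results of these data known. List genes without a row of their own, 16 in all, were left out of the gene counts. Among them, Bcl2l12, Bcl2a1b and Bcl2a1d have rows shared with another gene. Those rows were fitted by limma with all rows, and none was called. Start regions came from RefSeq (GRCm38.p6). Alternatives were other normalizations, a filter on low genes, other handling of rows, other variance settings, array weights, a replicate block, a minimum fold and leaving out each array.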

Additional observations from a re-analysis of the deposited data

How the results depend on the processing

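The number of regulators called higher, 5, and lower, 0, was the same under quantile normalization, median centring of arrays, a filter removing the lowest 30% of genes, both other treatments of several rows, trend and robust moderation, no moderation, array weights and the replicate block. Leaving out each array in turn gave 5 to 5 higher and 0 to 0 lower. Requiring an absolute log2 fold change of at least 1 left 2 of the regulators (Bcl2 and Bmf), and 1249 genes higher and 1335 lower over the whole table. In all 150 refits of single regulators the direction and the side of the threshold were kept. Many of these refits could not change the direction, since they used the same values and gave the same fold change. This held for the low filter, testing every row, trend and robust moderation, no moderation and the replicate block. It also held for the mean of all rows where a regulator had a single row. The log2 fold change ranged from 0.76 to 1.29 for Bcl2, 1.06 to 1.17 for Bmf, 0.78 to 1.05 for Bid, 0.60 to 0.80 for Bak1 and 0.58 to 0.72 for Bad, and the highest adjusted p by limma was 0.0391, for Bid. For the 5 regulators not called the lowest was 0.0926, for Bcl2l11. With the replicate block 2729 genes were higher and 3443 lower, against 2888 and 3773 without it, and the same 5 regulators were called. Among the other named genes, Bcl2l13 (adjusted p = 0.0515), Bnip2 (0.0591), Dffb (0.0657) and Casp8 (0.0691) lost their call with the block by limma. Casp8 (0.0673), Bcl2l14 (0.0958), Dffb (0.107), Naip6 (0.129) and Tnf (0.193) lost it without moderation, and Dffb (0.0526) with array weights, while Casp9 gained one without moderation (0.0287). Apaf1, at -0.02, changed sign under quantile normalization (0.0399) and array weights (0.0238). It was -0.1011 to 0.0308 with 1 array left out, above 0 without GFP-negative replicate 2, GFP-high replicate 2 or GFP-high replicate 3. With the mean of all rows, the shift of Bcl2 against Mcl1, Bcl2l1 and Bcl2l2 was 0.54, 0.49 and 0.66. By construction these smaller shifts come from the rows averaged. The log2 fold change of Bcl2 went from 1.20 to 0.76 and that of Mcl1 from 0.14 to 0.22. Those of Bcl2l1 and Bcl2l2 stayed at 0.27 and 0.10. The cause of the other changes between settings was not tested. RMA makes array distributions alike, so these values cannot show a change common to most genes.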
